A study of Culter alburnus with 6 samples.

Results

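Prostaglandins and leukotrienes are lipid signals made from arachidonic acid. Cytosolic phospholipase A2 frees the acid from membrane phospholipids, cyclooxygenase (prostaglandin G/H synthase, ptgs) turns it into prostaglandin H, and terminal synthases make the E, F, D and thromboxane products from it. These products act on G protein-coupled receptors of the same and neighbouring cells, and reductases help to inactivate them. Of the cyclooxygenases, ptgs2 is the inducible form, and zebrafish and other bony fish carry a pair of copies of it, ptgs2a and ptgs2b.

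The genes of this path were taken from a TPM table of 61608 assembled rows by the protein description that each row carries from the NR database. A row belonged if the description held the words prostaglandin, prostacyclin, thromboxane, leukotriene or cytosolic phospholipase A2, or if its Swiss-Prot gene name was PTGS1 or PTGS2. The rule found 30 rows. The word prostaglandin accounted for 20, cytosolic phospholipase A2 for 6, thromboxane for 2, leukotriene for 2 and prostacyclin for 0, and the 2 rows named PTGS2 were among the 20. No row carried the Swiss-Prot gene name PTGS1. The names come from the best protein match, most often in blunt snout bream (Megalobrama amblycephala), so a row is an assembled stretch that resembles the named protein. The 30 rows came from 28 components of the assembly, and 21 of them carried a Pfam domain.

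RNA was sequenced from TCCF2022, a line grown from Topmouth culter (Culter alburnus) caudal fin and labelled as wild-type fibroblasts. The paper describes its cells as mainly fibroblast-like. Cells with 5 μM Forskolin (F, 3 libraries) were set against cells with no Forskolin (CK, 3 libraries), all after 7 days. Both groups grew in DMEM/F12 with fetal bovine serum and, per the labels, 5 ng/mL bFGF, a fibroblast growth factor. Forskolin activates adenylate cyclase, which raises cAMP. The study gives this dose and time for its transcriptome too, while its methods for Forskolin-treated cells name a lower dose and more bFGF than the labels do. All 6 libraries are of 1 cell line, and the labels do not say whether they came from separate cultures, so the p-values measure only the spread between these libraries.

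TPM gives the level of a transcript scaled for its length and for the library total, so levels of different rows can be set side by side, but the number of reads behind a value is not kept and no counting interval was computed. Log2 changes are F minus CK on log2(TPM + 1), which understates the change of low rows, and limma tested the 37532 rows that reached 1 TPM in 3 or more of the 6 libraries. Between 34560 and 36954 rows reached 1 TPM in the F libraries and between 36010 and 37031 in the CK libraries. Correlations of log2(TPM + 1) were 0.891 to 0.896 within F, 0.875 to 0.897 within CK and 0.828 to 0.857 between the groups. Of the fibroblast markers, 7 of 10 matched a row by symbol, and their summed level was 2630 to 3678 TPM in F and 2222 to 2275 TPM in CK. Among them DCN was higher (log2 change 0.84) and TWIST1 lower (-0.59), and the other 5 did not pass. By NR name, collagen alpha-1(I) stood at 892 to 1466 TPM in F and 1068 to 1761 TPM in CK and did not pass. Of 9 rows with the NR name thy-1, 1 was taken. It was lower, at 263 to 339 TPM in F and 433 to 533 TPM in CK, and levels of the others are not given. Of the epithelial markers, 7 of 9 matched a row by symbol, though the row for CDH1 is named neural-cadherin in NR and was above 0 only in F3. Their sums were 5023 to 5570 TPM in F and 6343 to 6567 TPM in CK. EPCAM and CLDN4 were lower (log2 changes of -1.40 and -1.10), and KRT8, KRT18 and TP63 did not pass. GRHL2 was at 2.36, 1.77 and 1.89 TPM in F and 0.16, 0.68 and 0 TPM in CK. It reached 1 TPM only in its F libraries, so no test is given for it. Leukocyte markers summed to 7.62 to 11.3 TPM in F and 5.13 to 8.44 TPM in CK. The largest part of this in every library was CD74, at 7.53, 7.43 and 5.89 TPM in F and 4.14, 4.18 and 3.25 TPM in CK. CD74 was higher (log2 change 0.71, adjusted p = 0.0466, limma), and MPEG1 did not pass. LCP1 was too low for the test, at 1.97, 0.84 and 0.86 TPM in F and 2.53, 0 and 0 TPM in CK. Another 6 of the 9, PTPRC, CSF1R and SPI1 among them, matched no row by symbol. No level by NR name is given for these 6, so their absence is not shown. Of 4 osteoblast markers, 3 matched a row by symbol, with sums of 308 to 355 TPM in F and 258 to 338 TPM in CK. Among them SP7 was at 57.42, 76.66 and 94.21 TPM in F and 22.47, 36.06 and 47.80 TPM in CK. Its groups did not overlap, and it did not pass (adjusted p = 0.0650, limma). RUNX2 and BGLAP did not pass.

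Of the 30 rows, 23 could be tested. Of these, 5 were higher in F at an adjusted p under 0.05 (21.7%), where 6.15% of all tested rows were, and 0 were lower, where 6.07% of all tested rows were. At an unadjusted p under 0.05, 0 rows were lower, where 12.7% of all tested rows were. The rows that rose were the cyclooxygenase ptgs2a, a cytosolic phospholipase A2, a prostaglandin E synthase, the thromboxane A2 receptor and leukotriene A4 hydrolase. The rule was built around ptgs2a with earlier results of these data known. Its own call is thus no support for the comparison with all tested rows, which is a description. Both ptgs2a and the thromboxane A2 receptor passed with a log2 change beyond 1 in size. They made up 8.70% of the 23, where 7.18% of all tested rows passed in this way. Without ptgs2a only the receptor row is left, a smaller share than that of all tested rows. The other shares given here count ptgs2a too. In 11 of the 23 (47.8%) the libraries of the groups did not overlap, where 32.1% of all tested rows did not. The median log2 change was 0.22 over the 23 rows and -0.01 over all tested rows. The 23 rows were those that passed a filter on low values: 20 reached 1 TPM in every library, and ptgs2a, ptger4b and ptgfr in fewer. The share called depends on level. With the filter set at 5 TPM, 4 of 16 rows were higher, where 13.9% of the 15253 rows tested there were. Among the 4 was ptgs2a, which met this filter only through its F libraries, so its call adds nothing to that comparison. In that fit 0 of the 16 were lower, where 12.2% of all its rows were.

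**Figure D1:**
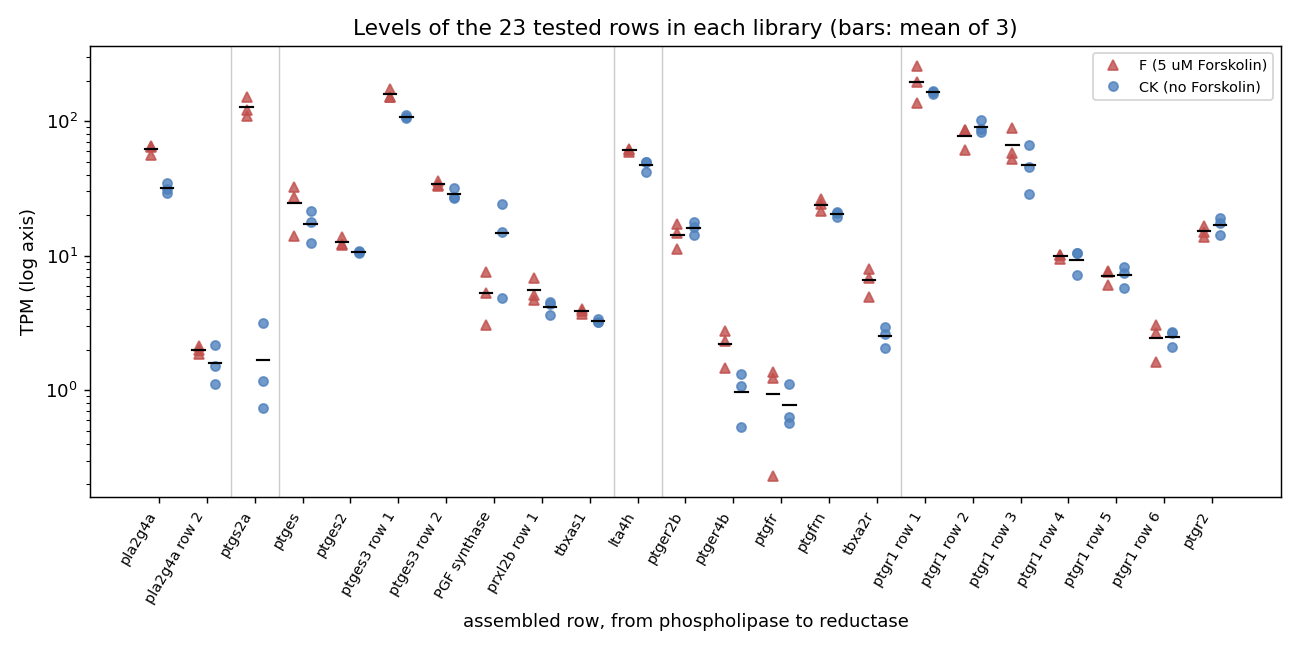
TPM (log axis) of the 23 tested rows in each library, ordered from phospholipase to reductase, with triangles for the 3 F libraries, circles for the 3 CK libraries and bars for the group means. The ptgs2a row sits at 108 to 150 TPM in F and 0.74 to 3.16 TPM in CK, and the reductases on the right overlap between the groups.

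The cyclooxygenase row ptgs2a (TRINITY_DN11706_c0_g3, matched to prostaglandin G/H synthase 2a, with peroxidase and EGF domains) had the highest change on the path. It stood at 121.57, 150.45 and 108.49 TPM in F1, F2 and F3, against 3.16, 1.17 and 0.74 TPM in CK1, CK2 and CK3. Every F library was thus far above every CK library, and CK1 was the highest of the CK libraries. The means were 127 ± 21.5 TPM in F and 1.69 ± 1.29 TPM in CK (SD, n = 3 each), a ratio of 75.1. The log2 change was 5.66 ± 0.33 (SE), with a 95% interval of 4.86 to 6.46 and an adjusted p of 0.000509 (limma, Benjamini-Hochberg). It ranked 5 by log2 change among the 37532 rows. The ratio rests on the low CK values: with 1 library left out it ran from 58.6 (without CK3) to 133 (without CK1). The row passed in all 15 fits tried, with log2 changes of 5.40 to 6.38. Its F libraries carried it past the filter on low values, at 1 TPM as at 5 TPM, and the rule was built around it. These passes are thus a description. With 3 libraries a group, an exact permutation test of a single row cannot go below p = 0.1, which ptgs2a reached.

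The level of ptgs2a relative to its neighbours on the path moved likewise. It made up 14.4%, 15.6% and 11.2% of the summed TPM of all 30 rows in F1, F2 and F3, and 0.503%, 0.186% and 0.107% in CK1, CK2 and CK3. The summed TPM was 924 ± 70.0 in F and 650 ± 36.8 in CK (SD, n = 3 each). Set against the main phospholipase row, ptgs2a was at 1.91, 2.29 and 1.94 times its level in the F libraries, and at 0.101, 0.0398 and 0.0215 times its level in the CK libraries. Cyclooxygenase RNA was thus the scarcer of the pair in each CK library and the more abundant in each F library. In bulk RNA, more cells with the transcript and more transcript per cell cannot be told apart. Sums of the markers matched by symbol moved beside this change. In every F library the epithelial sum was lower and the fibroblast sum higher than in any CK library. The fibroblast sum was set apart by DCN, at 1555, 1766 and 1396 TPM in F and 740, 915 and 993 TPM in CK. Without DCN, F3 had the lowest sum of all libraries. The sum with DCN leaves out collagen alpha-1(I) and thy-1, which were matched by NR name only. Collagen alpha-1(I), at 892 to 1466 TPM in F and 1068 to 1761 TPM in CK, did not pass, and the thy-1 row taken was lower in F. With both rows added to the sum with DCN, F3 no longer lies above any CK library. Most of the epithelial sum was KRT8 and KRT18, neither of which passed. The single markers of both sets did not all move with their sums. The part of either set in the change of ptgs2a was not tested.

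A further row matched prostaglandin G/H synthase 2 of Culter alburnus itself, without a paralog letter. It was too low for the test: 1.77, 3.94 and 0.70 TPM in F and 0.65, 0.62 and 0.30 TPM in CK. Its F libraries were all above its CK libraries, F3 only narrowly so. The 2 ptgs rows summed to 129 ± 23.1 TPM in F and 2.21 ± 1.43 TPM in CK (SD, n = 3 each). How the assembly divided reads between 2 rows of such similar proteins is not known. A row with no protein name in the assembly component of ptgs2a was at 3.53, 2.81 and 8.24 TPM in F and was listed at 0 in all CK libraries. It lies outside the rule and was looked at because of its place beside ptgs2a. It met the filter on low values only through its F libraries, so no test is given for it.

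Upstream of ptgs2a, cytosolic phospholipase A2 (pla2g4a, TRINITY_DN202_c2_g1), which releases arachidonic acid, rose. Its levels were 63.79, 65.61 and 55.91 TPM in F, against 31.26, 29.40 and 34.45 TPM in CK. The groups were well apart, with means of 61.8 ± 5.16 TPM in F and 31.7 ± 2.55 TPM in CK (SD, n = 3 each). The log2 change was 0.94 ± 0.10 (SE; adjusted p = 0.00281, limma), and the row passed in all 15 fits. A second row with the same match was at 1.85, 2.13 and 1.99 TPM in F and 2.17, 1.52 and 1.12 TPM in CK, which overlapped (log2 change 0.22, adjusted p = 0.664). The remaining 4 phospholipase rows were too low for the test. Of the rows matched to the zeta form, 1 was listed at 0 in all 6 libraries, and the other was at 0.04 to 0.48 TPM in F and 0.58 to 1.34 TPM in CK. The delta and gamma forms had values of at most 4.01 TPM in F and were listed at 0 in all CK libraries, the gamma form with a value above 0 only in F3.

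**Figure D2:**
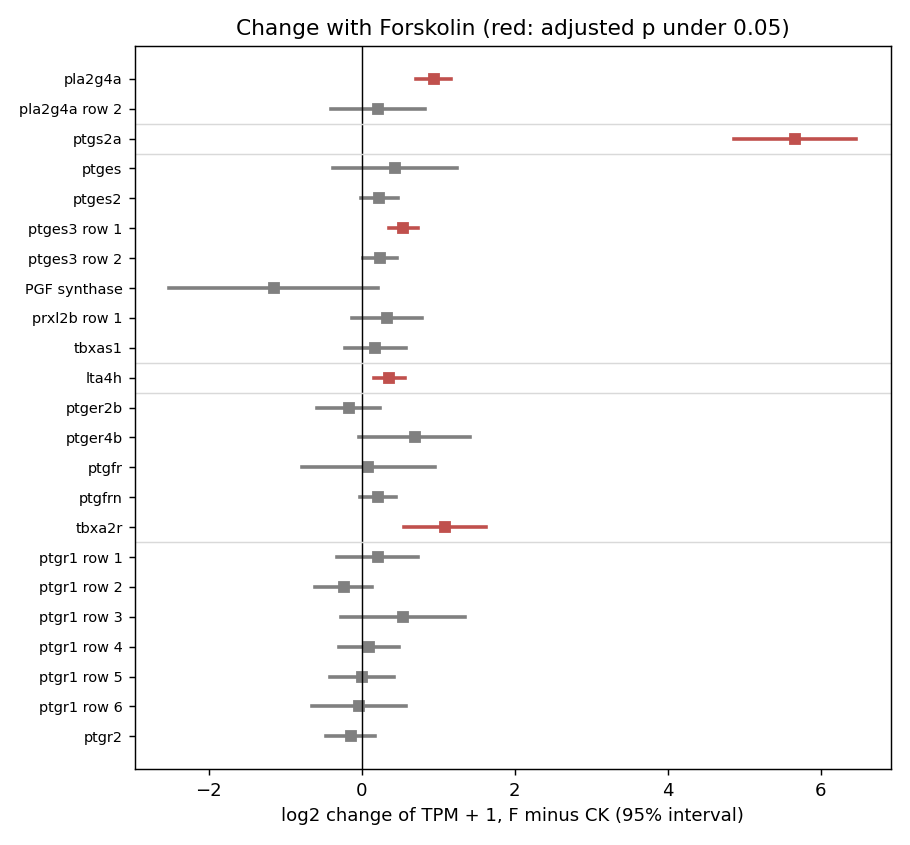
Log2 change of TPM + 1, F minus CK, for each of the 23 tested rows, with 95% intervals from limma, in red where the adjusted p was under 0.05. The point for ptgs2a at 5.66 lies far to the right of all others, and the intervals of the reductases at the bottom include 0.

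Downstream, of the 7 terminal synthase rows that could be tested, 1 rose, where 6.15% of all tested rows did, and 6 did not pass. Whether the rows differed from each other was not tested. The row that rose was 1 of 2 matched to PTGES3, known in mammals both as a cytosolic prostaglandin E synthase and as the Hsp90 co-chaperone p23. It stood at 150.27, 173.86 and 150.05 TPM in F, against 110.28, 105.86 and 107.25 TPM in CK. The F libraries were all higher, with means of 158 ± 13.7 TPM in F and 108 ± 2.26 TPM in CK (SD, n = 3 each). The log2 change was 0.54 ± 0.08 (SE; adjusted p = 0.00872, limma), and the call was lost without CK2 (0.0503) and with eBayes without trend (0.0578). The second PTGES3 row was at 33.43, 35.61 and 32.75 TPM in F and 26.92, 27.12 and 32.06 TPM in CK, a log2 change of 0.24 that did not pass (adjusted p = 0.174, limma). Its groups did not overlap, and the rows summed to 192 ± 15.1 TPM in F and 136 ± 3.22 TPM in CK (SD, n = 3 each).

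The membrane-bound synthase ptges, the enzyme that mammals pair with inducible cyclooxygenase, did not pass. It had 27.22, 32.15 and 14.09 TPM in F and 12.49, 17.88 and 21.57 TPM in CK. F3 was below both CK2 and CK3, and the 95% interval of the log2 change of 0.43 ran from -0.38 to 1.24 (adjusted p = 0.511, limma). The interval holds both a fall and a rise. The third form, ptges2, was at 12.22, 13.79 and 12.09 TPM in F and 10.54, 10.75 and 10.74 TPM in CK. Its groups did not overlap, and its log2 change of 0.23 did not pass (adjusted p = 0.215, limma).

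No synthase of another prostanoid among the 30 rows passed. A row matched to prostaglandin F synthase was at 3.08, 7.55 and 5.27 TPM in F and 4.89, 24.22 and 14.96 TPM in CK. CK1 lay within the range of F while the other CK libraries were above it, and the log2 change of -1.15 had a 95% interval of -2.51 to 0.22 (adjusted p = 0.274, limma). A row of prxl2b, named prostamide/prostaglandin F synthase, was at 5.12, 4.68 and 6.79 TPM in F and 4.53, 3.62 and 4.34 TPM in CK. It did not overlap between the groups and did not pass (log2 change 0.33, adjusted p = 0.351, limma). Another prxl2b row of the same component was below the filter, at 0.28 to 0.72 TPM in F and 0.71 to 1.27 TPM in CK. Thromboxane A synthase (tbxas1), a P450 enzyme, was at 3.67 to 4.04 TPM in F and 3.24 to 3.40 TPM in CK (log2 change 0.18, adjusted p = 0.578, limma).

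Prostaglandin D synthase was outside the rule, because the rows that KEGG assigns to it are named lipocalin-like in NR. After its values were seen, 1 of these rows was singled out. It stood at 29.41, 47.38 and 44.87 TPM in F, against 5.52, 10.57 and 15.00 TPM in CK. The lowest F library was well above the highest CK library, and the log2 change was 1.94 ± 0.35 (SE; adjusted p = 0.0195, limma). The call was lost without F2 (0.0674), without F3 (0.0627) and without CK2 (0.0657). The other such row was at 2.70 ± 0.495 TPM in F and 2.75 ± 0.722 TPM in CK (SD, n = 3 each). KEGG placed 41 rows in arachidonic acid metabolism, 19 of which are among the 30. Of the other 22, 17 could be tested, and this lipocalin-like row was the only one of them to pass in either direction. Of all tested rows, 6.15% were higher and 6.07% lower. The median log2 change was -0.07 over the 17.

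On the leukotriene branch, leukotriene A4 hydrolase (lta4h), which makes leukotriene B4, was somewhat higher. Its levels were 61.70, 58.74 and 61.29 TPM in F, against 49.64, 49.28 and 42.12 TPM in CK. The groups did not overlap, with means of 60.6 ± 1.60 TPM in F and 47.0 ± 4.24 TPM in CK (SD, n = 3 each). The log2 change was 0.36 ± 0.08 (SE; adjusted p = 0.0411, limma). This was the least stable of the 5 calls: it was lost under 11 of 14 alternatives, among them each library left out in turn, with adjusted p from 0.0694 (without F2) to 0.126 (without F1), and under both other scalings.

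Of the receptors, the thromboxane A2 receptor (tbxa2r, TRINITY_DN2502_c0_g1) was higher in F. It had 6.85, 7.93 and 4.97 TPM in F, against 2.60, 2.95 and 2.07 TPM in CK. Each F library was above each CK library, with F3 the lowest of F. The means were 6.58 ± 1.50 TPM in F and 2.54 ± 0.443 TPM in CK (SD, n = 3 each), and the log2 change was 1.09 ± 0.22 (SE; adjusted p = 0.0267, limma). The call was lost without F1 (0.0963), F2 (0.0730), CK1 (0.0780), CK2 (0.0707) or CK3 (0.0848) and held without F3 (0.0282).

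The prostaglandin E receptors EP2 and EP4, which raise cAMP through the stimulatory G protein in mammals, did not pass. The EP2 row ptger2b was at 14.63, 17.22 and 11.23 TPM in F and 14.29, 16.27 and 17.86 TPM in CK. The groups overlapped, and the 95% interval of the log2 change of -0.17 was -0.58 to 0.24 (adjusted p = 0.609, limma). The EP4 row ptger4b was at 2.34, 2.76 and 1.47 TPM in F and 1.08, 0.53 and 1.32 TPM in CK. These did not overlap, F3 lying just above CK3, and the interval of the log2 change of 0.69 ran from -0.04 to 1.42 (adjusted p = 0.219, limma). The F2-alpha receptor ptgfr, which signals through calcium in mammals, was at 0.23, 1.37 and 1.23 TPM in F and 0.63, 1.12 and 0.57 TPM in CK. No separation was seen there (log2 change 0.09, adjusted p = 0.913, limma). A row matched to leukotriene B4 receptor 1 was too low for the test, with values above 0 only in F2 (0.95 TPM) and CK2 (1.14 TPM).

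The negative regulator of the F2-alpha receptor, ptgfrn, was far above that receptor in level. It had 24.10, 26.24 and 21.66 TPM in F and 20.80, 21.24 and 19.53 TPM in CK. The groups did not overlap, and the log2 change of 0.21 did not pass (adjusted p = 0.234, limma). The 5 receptor rows without it summed to 24.4 ± 5.67 TPM in F and 20.8 ± 1.92 TPM in CK (SD, n = 3 each). Within this sum, EP2 was the highest receptor in every library of both groups.

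The prostaglandin reductases, which reduce keto-prostaglandins on the way to inactive products, had means of 2.46 to 196 TPM in F and 2.49 to 164 TPM in CK, and none of them passed the test. Of the 7 rows, 0 passed in either direction at an adjusted p under 0.05 (limma) and 0 at an unadjusted p under 0.05, and in each the groups overlapped. Of all tested rows, 6.15% were higher and 6.07% lower at that adjusted p, and in 32.1% the groups did not overlap. With so few rows, 0 passing is little apart from these shares. The highest, the first ptgr1 row, was at 135.52, 196.77 and 254.72 TPM in F and 163.40, 160.09 and 167.87 TPM in CK. The CK libraries were close together, while the F libraries ran from below to above them (log2 change 0.21, 95% interval -0.32 to 0.73, adjusted p = 0.626, limma). The second ptgr1 row was at 85.38, 61.44 and 86.51 TPM in F and 83.25, 87.37 and 102.06 TPM in CK (log2 change -0.23, adjusted p = 0.433, limma). The third was at 52.45, 58.42 and 88.14 TPM in F and 45.48, 28.57 and 66.38 TPM in CK (log2 change 0.54, adjusted p = 0.397, limma). F3 and CK3 were the highest of their groups in this row.

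The other ptgr1 rows, numbered by level, were lower. Row 4 was at 10.16, 9.52 and 10.10 TPM in F and 10.51, 7.17 and 10.41 TPM in CK. Row 5 was at 6.10, 7.55 and 7.65 TPM in F and 7.46, 5.72 and 8.22 TPM in CK, and row 6 at 1.63 to 3.07 TPM in F and 2.08 to 2.73 TPM in CK. Their log2 changes lay between -0.03 and 0.09. The 6 ptgr1 rows summed to 359 ± 80.5 TPM in F and 320 ± 33.4 TPM in CK (SD, n = 3 each), with F3 the highest of all libraries. Rows 2 and 4 came from the same assembly component, so the division of reads between them is uncertain. Whether other rows are pieces of the same transcript was not examined, so the sum may count a transcript more than once. The row of ptgr2 was at 16.70, 13.85 and 15.06 TPM in F and 14.33, 17.54 and 19.13 TPM in CK (log2 change -0.15, adjusted p = 0.580, limma).

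**Figure D3:**
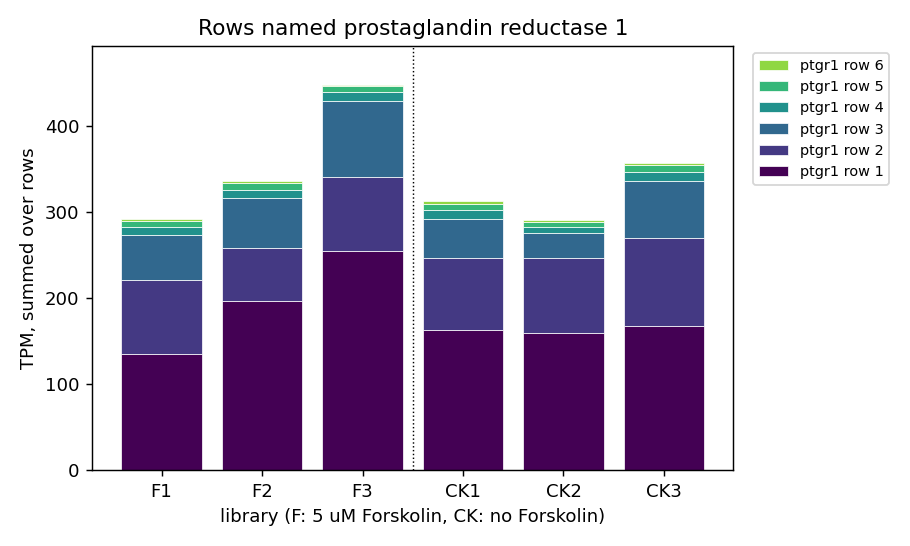
TPM of the 6 rows named prostaglandin reductase 1, stacked in each library, with the F libraries left of the CK libraries. The stacks reach 293, 336 and 449 TPM in F and 313, 292 and 357 TPM in CK, and the first row is the largest segment in all 6 libraries.

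An unnamed row in the assembly component of ptgr1 rows 2 and 4 stood apart from them. It was at 31.40, 26.12 and 28.04 TPM in F and 12.43, 16.02 and 19.09 TPM in CK, with no overlap. The log2 change was 0.82 ± 0.16 (SE; adjusted p = 0.0252, limma), and the call held in 8 of 15 fits. It was lost without F1, F2, F3, CK1 or CK2, with adjusted p of 0.0502 to 0.0888 (limma). Whether its reads are those of a reductase is not given by the annotation.

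Further genes of eicosanoid metabolism were taken from a list of 94 symbols for arachidonate release and supply, the lipoxygenase and P450 branches, transport and receptors. Of these, 3 are among the 30 rows, 42 matched no row by symbol, HPGD and SLCO2A1, which oxidise and import prostaglandins, among them, and 48 could be tested. Of the 48, 5 rose (10.4%) and 9 fell (18.8%), where 6.15% and 6.07% of all tested rows did, and 34 did not pass. With the filter at 5 TPM, 5 of 33 list genes rose and 9 fell, where 13.9% and 12.2% of all rows tested there did. Of those called, MGLL met this filter only through its F libraries, and MGST2 and RXRA only through their CK libraries. These counts thus lean on genes let in by the group where they are high. The median log2 change over the 48 was -0.03. Where a symbol had several rows, the row with the highest mean stood for it.

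The list members that rose came from the release, supply and transport parts of the list. In the release part 1 of 14 tested genes rose and 1 fell. In the supply part 2 of 10 rose and 3 fell, and in the transport part 2 of 7 rose and 0 fell. Of all tested rows, 6.15% rose and 6.07% fell. MBOAT7, which puts arachidonate into phosphatidylinositol, was at 43.40, 39.29 and 41.42 TPM in F and 22.38, 21.64 and 21.13 TPM in CK (log2 change 0.90, adjusted p = 0.00139, limma). MGLL, the lipase that frees arachidonate from an endocannabinoid, was at 8.65, 11.20 and 10.96 TPM in F and 4.78, 4.45 and 4.51 TPM in CK (log2 change 1.01, adjusted p = 0.00889, limma). ACSL4, an acyl-CoA ligase that prefers arachidonate, was at 71.07, 68.88 and 62.56 TPM in F and 49.51, 46.53 and 49.29 TPM in CK (log2 change 0.47, adjusted p = 0.0121, limma). None of these overlapped between the groups. The prostaglandin transporters SLCO3A1 and ABCC4 had log2 changes of 0.82 and 0.53. SLCO3A1 was at 27.3 ± 4.53 TPM in F and 14.9 ± 1.75 TPM in CK, and ABCC4, which exports prostaglandin E, at 34.9 ± 4.71 TPM in F and 23.7 ± 0.375 TPM in CK (SD, n = 3 each; adjusted p = 0.0186 and 0.0276, limma).

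Among the list members that fell, ANXA1 had the highest level of the list. Annexin A1 binds phospholipids and is known as an inhibitor of phospholipase A2. It was at 1073, 835 and 1148 TPM in F and 2155, 1999 and 1901 TPM in CK, and it fell by 1.00 on the log2 scale (adjusted p = 0.00842, limma). POR, the electron donor of microsomal P450 enzymes, was at 107 ± 13.2 TPM in F and 215 ± 12.6 TPM in CK (SD, n = 3 each; adjusted p = 0.00282, limma). MGST1, a microsomal glutathione transferase, was at 22.98, 25.02 and 21.53 TPM in F and 44.88, 49.42 and 44.79 TPM in CK (adjusted p = 0.00187, limma). All of these libraries were lower in F than in CK. ACSL1, ELOVL2, EPHX1 and RXRA fell by 0.67, 0.51, 0.55 and 1.06 on the log2 scale. Their adjusted p were 0.0158, 0.0163, 0.0257 and 0.0318 (limma). Their means were 16.35, 9.89, 14.95 and 2.25 TPM in F and 26.4, 14.5, 22.4 and 5.69 TPM in CK. MGST2 and ACSL6, named outside the rule, completed the 9.

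With any 1 library left out, ANXA1, MBOAT7, MGST1, POR and MGLL stayed past the threshold. The other named calls did not. ABCC4 was lost without F1, CK1, CK2 or CK3 (adjusted p of 0.0857 to 0.102, limma), SLCO3A1 without F1, CK1 or CK2 (0.0663 to 0.0740) and ACSL4 without F1 or CK2 (0.0505 and 0.0648). ACSL1 was lost without CK2 or CK3 (0.0731 and 0.0626), ELOVL2 without any library but F2 or F3 (0.0550 to 0.0825), RXRA without any but F2 (0.0646 to 0.112) and EPHX1 without each of the 6 (0.0515 to 0.0913). MGST2 was lost without any library but CK1 (0.0582 to 0.135) and ACSL6 without any but F3 (0.0580 to 0.146).

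**Figure D4:**
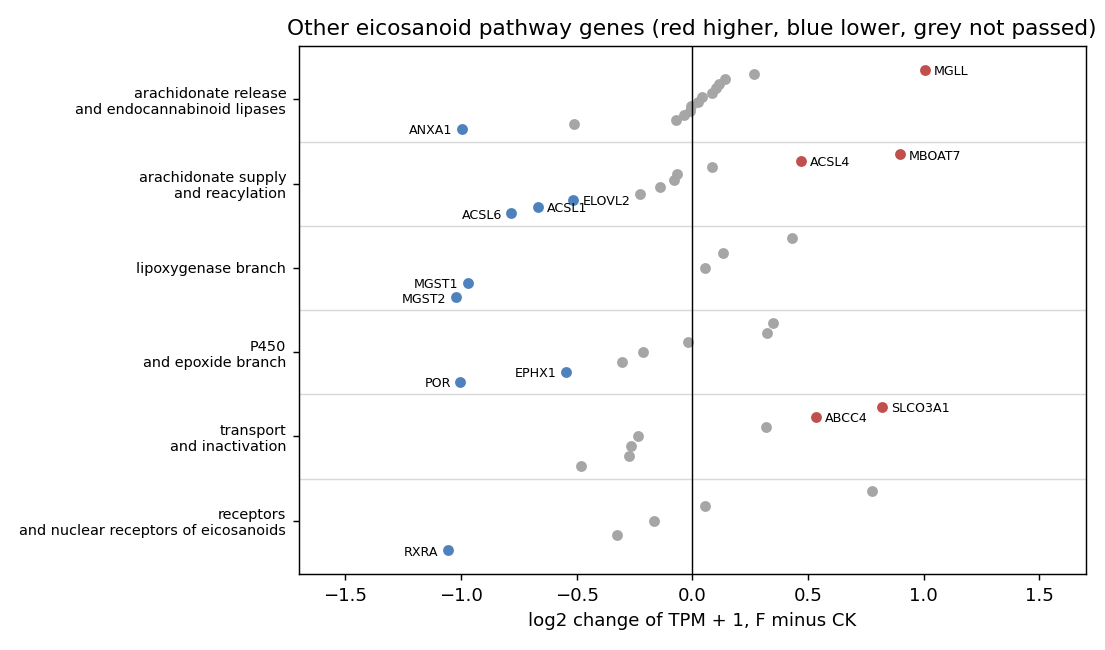
Log2 change of TPM + 1, F minus CK, for the 48 tested genes of the wider list in 6 groups, each point a gene, red for higher in F, blue for lower in F and grey for not passed. The 5 red points lie in the release, supply and transport groups, and the 9 blue points in all groups but transport.

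Rows whose profile was most like that of ptgs2a were sought among 10490 rows with a symbol and a group mean of at least 5 TPM, by the Euclidean distance between log2(TPM + 1) profiles centred on their mean over the 6 libraries. The nearest 5 were ANGPTL7 (distance 0.929), TRH (0.937), ST8SIA6 (0.970), RGS5A (1.21) and TPR (1.24). ANGPTL7, a secreted angiopoietin-like protein, was at 60.48, 68.06 and 71.53 TPM in F and 0.24, 0.25 and 0.06 TPM in CK. TRH, the precursor of thyrotropin-releasing hormone, was at 52.21, 54.56 and 51.54 TPM in F and 0.09, 0.09 and 0.05 TPM in CK. ST8SIA6, a sialyltransferase, was at 77.95, 103.77 and 78.17 TPM in F and 1.13, 0.63 and 1.21 TPM in CK. The CK libraries of these 3 rows were at 1.21 TPM or below, and the likeness is a description over 6 libraries of 2 groups.

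**Figure D5:**
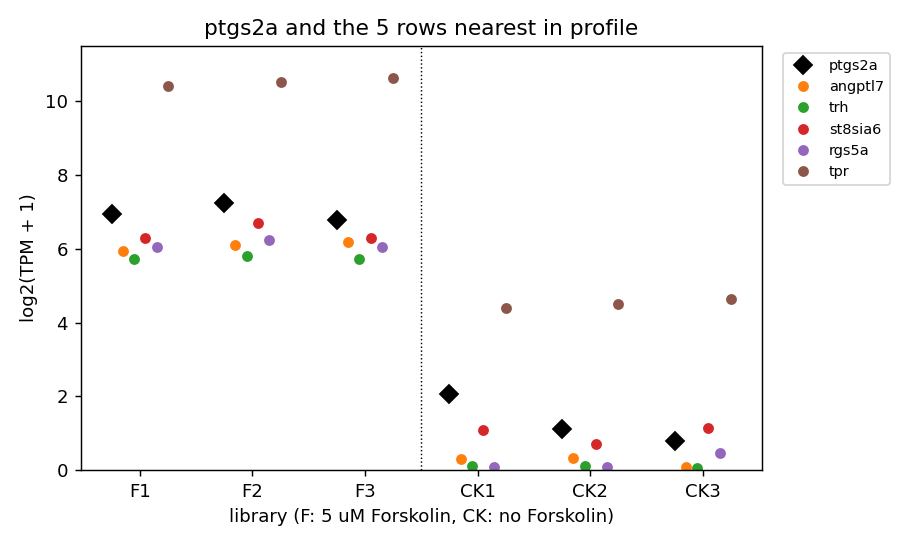
Log2(TPM + 1) of ptgs2a (diamonds) and of the 5 rows nearest to it in profile (circles) in each library, with the F libraries left of the CK libraries. The F means of the 6 rows lie 5.46 to 6.01 above their CK means, and the row matched to TPR does so at a higher level, 1361 to 1596 TPM in F and 20.1 to 23.8 TPM in CK.

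The F libraries were not alike on the path. F2 was the highest of the F libraries in 13 of the 23 tested rows and F3 the lowest in 11, while CK3 was the highest of the CK libraries in 11. The order of F2 and F3 in ptgs2a, pla2g4a, ptges, tbxa2r, ptger2b and ptger4b was the same, with F2 above F3 in each. In the first ptgr1 row it was the opposite.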

How the data were processed

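RNA-seq libraries of TCCF2022 cells (3 F, 3 CK) were compared. The study describes a de novo Trinity assembly quantified with RSEM, and the deposited values are TPM per assembled gene, made by the authors, with protein matches. The submitters' processing notes name TopHat2 2.1.1, Cufflinks 2.2.1, RSEM 1.3.3 and DESeq2 1.24.0, so the route to the values is not settled. Depth per library was not used, since TPM does not keep it. Deposited group means equal the library means to within 3.33e-07 TPM. Libraries were matched to groups by their titles.

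In R 4.3.3, limma 3.58.1 was fitted to log2(TPM + 1) (lmFit and a trended eBayes, two-sided, Benjamini-Hochberg over the 37532 rows that reached 1 TPM in 3 libraries), with calls at an adjusted p under 0.05. Tables and plots used Python 3.11.15, pandas 2.3.3, NumPy 2.4.6, SciPy 1.17.1 and matplotlib 3.10.9. The procedure was tested on simulated data.

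Rows that were called or averaged at least 5 TPM in a group were given with their values, as were up to 12 list genes with the smallest adjusted p, the list gene with the highest mean and the 5 nearest profiles. The members and lists were chosen with earlier results of these data known. Alternatives were median-of-ratios and quantile scaling, no low-value filter or one at 5 TPM, a 0.1 pseudocount, an untrended eBayes, a replicate block, rows summed per symbol, a log2 change beyond 1, and each library left out. For genes outside the 30 rows these were added after seeing the data. Sequences of the rows were not analysed here, and the table of locus tags was not joined to the assembly and not used.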

Additional observations from a re-analysis of the deposited data

How the results depend on the processing

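Of the 30 rows, 5 were higher in F. The count was 3 with eBayes without trend, 2 with a log2 change beyond 1, and 2 to 4 with 1 library left out, the lowest without CK2. Without CK2 the calls left were ptgs2a and pla2g4a, which passed at an adjusted p under 0.05 in every fit. With a log2 change beyond 1 the calls left were ptgs2a and tbxa2r. Samples with the same number correlated at 0.00552 to 0.00903 in their deviations, each best with its own number. These correlations are very small, and the labels do not say whether libraries of the same number were paired. With the replicate number as a block, 3 rows were higher, and the calls of lta4h (adjusted p = 0.110, limma) and tbxa2r (0.0565) were lost. Over all rows the block gave 941 higher and 1071 lower, against 2310 and 2277 without it, and on the wider list 1 higher and 4 lower, against 5 and 9. With 1 library left out, 931 to 1944 rows were higher and the list gave 2 to 5 higher and 3 to 6 lower. No alternative turned the direction of a called row, and the count of lower rows among the 30 stayed at 0 in all of them. The fits with no filter and at 5 TPM tested 29 and 16 of the 30 rows. Each called 4 of them higher, where 2.72% and 13.9% of all rows tested were. The row of ptgs2a is among the 4 in each, and at 5 TPM it met the filter only through its F libraries. The 7 rows under the filter were given as values only.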
